A study of Mus musculus with 6 samples.

Results

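The TCF/LEF family and its corepressors were examined here as 8 genes, the 4 TCF/LEF transcription factor genes of the mouse, Tcf7, Lef1, Tcf7l1 and Tcf7l2, and the 4 long Groucho corepressor genes Tle1, Tle2, Tle3 and Tle4, out of 54532 genes in the deposited table. They were taken by gene name, each name matched 1 row, and all 8 passed the filter on low counts that left 16606 genes. The genes were chosen by their raw counts in KO against WT, so their fold changes and calls are given as a description and carry no test. The libraries hold RNA of primary neurospheres (floating cultures of neural progenitors) grown for 6 days with EGF and bFGF (20 ng/ml each) from C57BL/6 embryos at E14.5. The 3 KO libraries (KO 1, KO 2 and KO 3) came from conditional knockouts of Ash2l made with D6-Cre, a transgene active in the dorsal forebrain, and the 3 WT libraries (WT 3, WT 6 and WT 7) from embryos labelled WT. The labels do not say whether the WT embryos carried the Cre or a floxed allele, nor how many embryos stand behind a library, so the spread between libraries may be partly technical. As tissue the labels give dorsal cortex in one field and, in another, the walls of the lateral ventricles.

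TCF/LEF proteins bind DNA through an HMG box and recruit beta-catenin when Wnt signalling stabilises it. Without beta-catenin they hold TLE corepressors at the same sites and keep target genes off. In vertebrates TCF7L1 acts mostly as a repressor, LEF1 and TCF7 mostly as activators, and TCF7L2 as either, and TCF7L2 is also needed for oligodendrocyte differentiation in the mouse. ASH2L belongs to the core of the COMPASS complexes, enzymes that methylate lysine 4 of histone H3 at promoters, many of them rich in CpG dinucleotides.

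In mm10 the deposited table places Tcf7 (ENSMUSG00000000782) at chr11:52252371-52283014 on the minus strand, Lef1 (ENSMUSG00000027985) at chr3:131110471-131224356 on the plus strand, Tcf7l1 (ENSMUSG00000055799) at chr6:72626378-72789254 on the minus strand and Tcf7l2 (ENSMUSG00000024985) at chr19:55741810-55933654 on the plus strand. Among the corepressor genes it places Tle1 (ENSMUSG00000008305) at chr4:72117142-72200919 on the minus strand, Tle2 (ENSMUSG00000034771) at chr10:81574561-81590845 on the plus strand, Tle3 (ENSMUSG00000032280) at chr9:61372366-61418497 on the plus strand and Tle4 (ENSMUSG00000024642) at chr19:14448072-14598051 on the minus strand. All are protein-coding, and their values are for the whole gene.

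The bases before the first RefSeq start are shown for Lef1, which was higher in KO, and Tcf7l2, which was lower. Each run is 250 bases (GRCm38.p6, the same assembly as mm10), 5′ to 3′ on the plus strand, with CpG dinucleotides in capitals. Lef1 is at chr3:131110047-131110296 and Tcf7l2 at chr19:55741560-55741809, both outside the span of the gene in the deposited table.
Lef1: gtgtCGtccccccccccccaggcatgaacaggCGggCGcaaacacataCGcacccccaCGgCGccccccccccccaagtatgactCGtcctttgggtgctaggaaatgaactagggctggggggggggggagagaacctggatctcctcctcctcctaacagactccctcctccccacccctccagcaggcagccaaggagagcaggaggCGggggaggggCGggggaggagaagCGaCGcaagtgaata
Tcf7l2: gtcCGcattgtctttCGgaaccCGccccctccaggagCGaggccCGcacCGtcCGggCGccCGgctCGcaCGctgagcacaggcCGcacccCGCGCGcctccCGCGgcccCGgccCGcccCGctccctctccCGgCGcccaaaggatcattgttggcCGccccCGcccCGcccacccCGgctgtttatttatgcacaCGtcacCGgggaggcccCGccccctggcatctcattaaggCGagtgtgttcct
The Lef1 run holds 11 CpG and the Tcf7l2 run 30. In the same 250 bases Tcf7, also higher in KO, has 37 CpG, and Tcf7l1, also lower, has 29. The corresponding windows of the other TCF/LEF genes are not shown as upstream sequence. That of Tcf7 holds an open reading frame that begins at an ATG and continues over 165 bases to its end, and 209 of the 250 bases listed for Tcf7l1 lie within the gene's span.

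RefSeq promoter windows, from 250 bases before to 50 after each start, were searched on both strands for the core that TCF/LEF proteins bind, written as CTTTGAA or as CTTTGAT, and also as CTTTGTA or as CTTTGTT, which cannot overlap each other on 1 strand. All 8 genes had a window and there were 14 windows in all, since several genes have more than 1 start. Of these, 2 held a match, 14.3%, beside 16.9% of all 32851 windows. Both had a spelling added after a first search, CTTTGTA for Lef1 and CTTTGTT for Tcf7l2, while CTTTGAA and CTTTGAT matched in no member window. Both lay before internal starts, for Lef1 46 kb and for Tcf7l2 154 kb downstream of the first start. They are shown with 10 bases on each side and the core in capitals, the Lef1 core at chr3:131156147-131156153 on the minus strand and the Tcf7l2 core at chr19:55895307-55895313 on the plus strand.
Lef1 internal start: tgcaatcctaCTTTGTAttctgaggtt
Tcf7l2 internal start: aaatatcaggCTTTGTTcttttgattg
A read count per gene does not tell these starts apart. The reference annotation (GENCODE M21) lists 2 start codon positions for Lef1 and 4 for Tcf7l2 among coding transcripts, and 1 each for Tcf7 and Tcf7l1.

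Total counts ran from 16764480 to 21983659 reads, and 3 reads amount to 0.136 to 0.179 CPM (reads scaled to a common library size by TMM). Ash2l itself had a mean CPM of 113 ± 3.55 in the WT libraries and 95.9 ± 8.41 in the KO libraries (SD, n = 3 each; log2 fold change -0.24, SE 0.10, adjusted p = 0.119 by edgeR), and a count over the whole gene does not show how many cells had recombined. All 15 progenitor and radial glia markers had reads in every library, with a summed level of 5794 to 8829 CPM, although 6 of them fell and 1 rose in KO (edgeR). Only 3 fell without WT 6, WT 7, KO 1 or KO 2, and 4 without KO 3, and 2 rose without WT 3. On the first principal component of all genes, with 69.9% of the variance, WT 3 lay at -25.5. The other WT libraries were further from KO, at -81.7 and -85.7, and the KO libraries spanned 53.5 to 76.8.

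Levels are compared between genes as FPKM, which divides reads by gene length. In WT spheres Tle4 was the most abundant of the 8 at 33 ± 1.79 FPKM (SD, n = 3, as for all group values here), and Lef1 the least at 0.0447 ± 0.0325. Between them came Tcf7l1 at 15.3 ± 2.41, Tle1 at 14.2 ± 2.99, Tle3 at 10.6 ± 1.86, Tcf7l2 at 5.99 ± 0.338, Tle2 at 2.07 ± 1.25 and Tcf7 at 0.851 ± 0.128. The ranges of Tcf7l1 and Tle1 overlapped, as did those of Tle1 and Tle3, while the other neighbours in this order had separate ranges. In KO spheres the order was Tle4 at 22.3 ± 3.43, Tle3 at 8.44 ± 1.42, Tle1 at 7.96 ± 1.03, Tle2 at 5.99 ± 1.08, Tcf7l1 at 4.1 ± 0.775, Tcf7 at 3.47 ± 0.987, Tcf7l2 at 1.76 ± 0.34 and Lef1 at 0.246 ± 0.0356. There the ranges overlapped between Tle3 and Tle1, between Tle2 and Tcf7l1, and between Tcf7l1 and Tcf7. Tcf7l1 thus had a lower place in KO than in WT, and Tcf7 moved from below Tcf7l2 to above it.

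**Figure D1:**
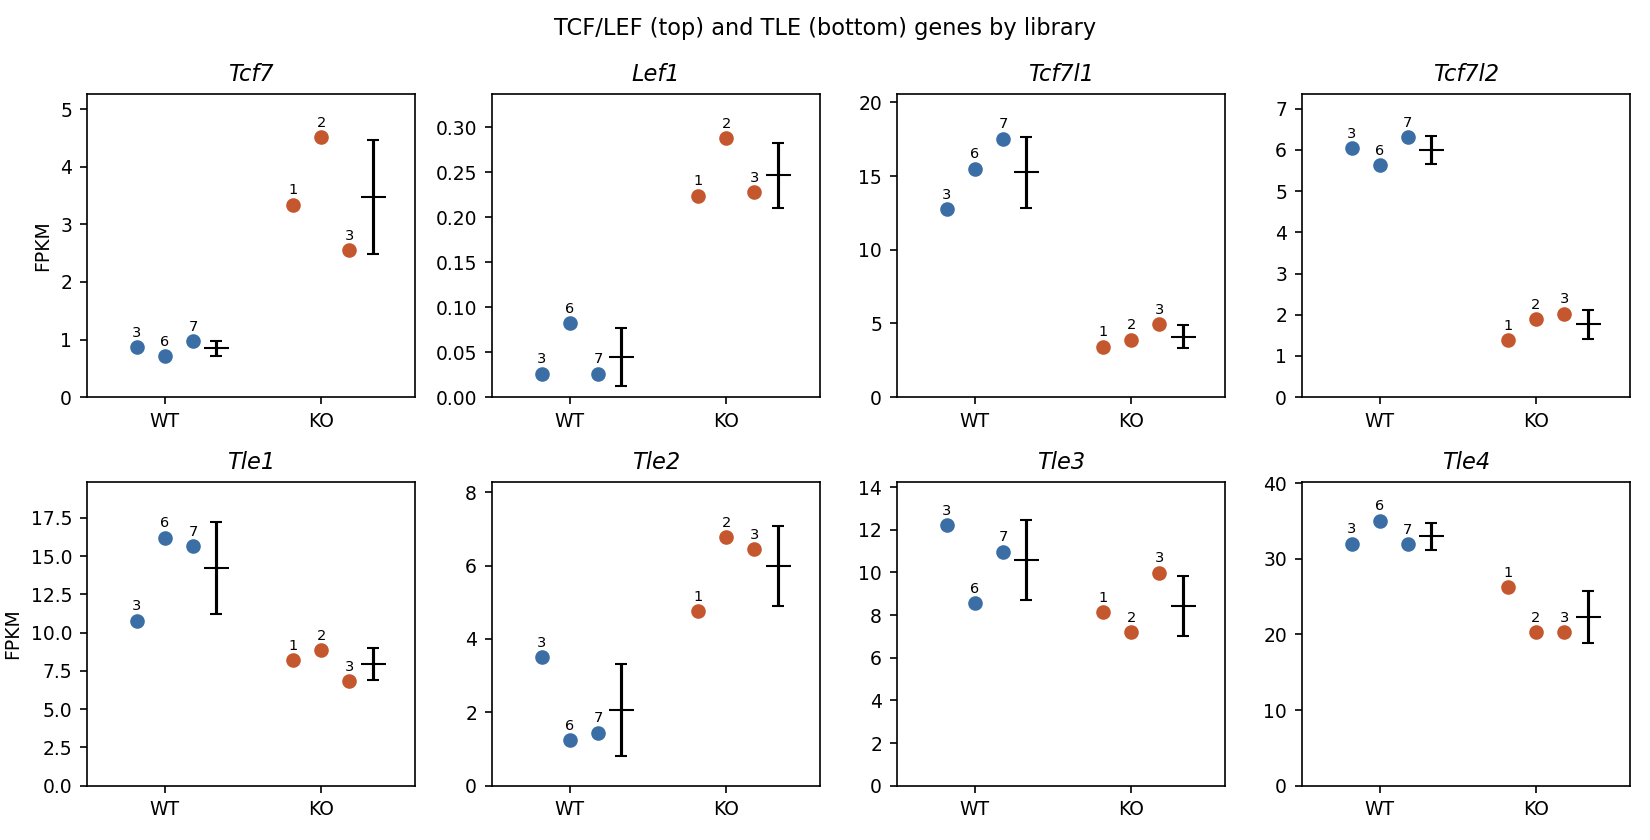
FPKM of each of the 8 genes (vertical axes, linear and starting at 0) in the 3 WT and 3 KO libraries, with points numbered by library and the bar beside each group giving mean ± SD. The groups are apart for all genes but Tle3, and in the Tle2 panel WT 3 at 3.5 FPKM lies well above WT 6 at 1.25 and WT 7 at 1.45.

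Tcf7l1, the member best known as a repressor of Wnt targets, and Tcf7l2 were both lower in KO. Tcf7l1 measured 12.7, 15.5 and 17.6 FPKM in WT 3, WT 6 and WT 7. The values were 3.44, 3.9 and 4.95 FPKM in KO 1, KO 2 and KO 3. Every WT library was well above every KO library. KO over WT gave a fitted log2 fold change of -1.96 (SE 0.21), 3.89-fold lower. Tcf7l2 measured 6.04, 5.63 and 6.3 FPKM in WT and 1.38, 1.88 and 2.03 FPKM in KO, in the same order of libraries. Its WT libraries had a coefficient of variation of 6.13% in CPM, the lowest of the 8 genes, and no KO library came near them. Its log2 fold change was -1.82 (SE 0.18), 3.53-fold lower. In bulk RNA, fewer cells of a type and less RNA per cell cannot be told apart.

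Tcf7 and Lef1, which act mostly as activators with beta-catenin and are themselves known Wnt targets, were higher in KO, from low WT levels. Tcf7 had 40, 39 and 56 reads in the WT libraries and 147, 216 and 141 in the KO libraries, or 0.867, 0.716 and 0.97 FPKM against 3.34, 4.52 and 2.56 FPKM. Every KO library lay above every WT library, and KO 3 was the lowest of the KO libraries. The log2 fold change was 1.96 (SE 0.30), 3.9-fold. Lef1 had only 4, 15 and 5 reads in the WT libraries, against 33, 46 and 42 in the KO libraries, in the same order as before. In FPKM that is 0.0259, 0.0822 and 0.0259 in WT and 0.224, 0.287 and 0.228 in KO. WT 6 thus had more Lef1 reads than the other WT libraries together, and the log2 fold change of 2.37 (SE 0.50) stood at 3.16 without it. Even in KO, Lef1 remained the least abundant of the 8 genes.

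**Figure D2:**
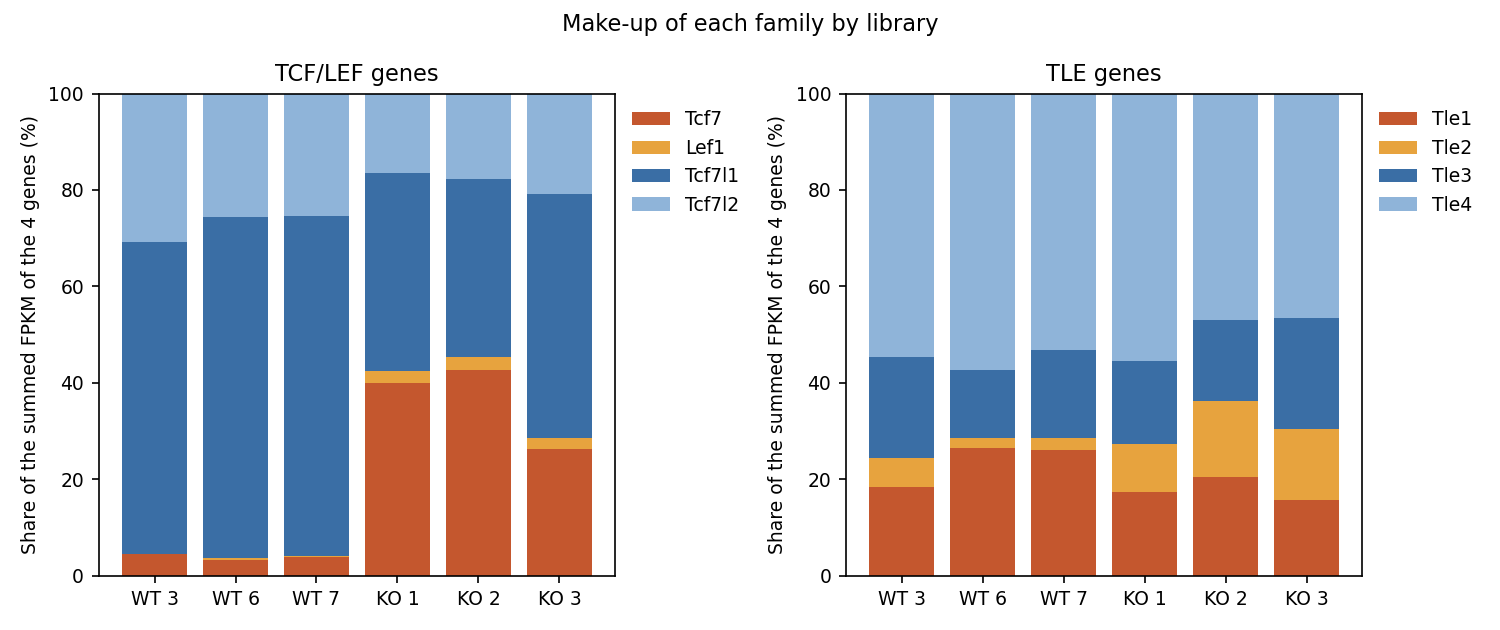
Share of each gene in the summed FPKM of its family (vertical axis, percent) for the 4 TCF/LEF genes on the left and the 4 TLE genes on the right, with 1 bar per library. Tcf7 and Lef1 together make up 3.64% to 4.54% of TCF/LEF FPKM in WT and 28.5% to 45.4% in KO, and Tle4 holds the largest share of TLE FPKM in every library.

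Both the size and the make-up of the TCF/LEF pool differed between the groups. The summed FPKM of the 4 genes was 19.7, 21.9 and 24.9 in the WT libraries, against 8.38, 10.6 and 9.76 in the KO libraries. Tcf7 and Lef1 together were 4.54%, 3.64% and 4.01% of it in the WT libraries and 42.5%, 45.4% and 28.5% in the KO libraries. Nearly all of that share was Tcf7, since Lef1 did not exceed 0.287 FPKM. Among the corepressors the summed FPKM was 58.4, 61 and 60 in WT and 47.3, 43.1 and 43.6 in KO. The ratio of summed TLE FPKM to summed TCF/LEF FPKM was 2.97, 2.78 and 2.41 in WT and 5.65, 4.07 and 4.46 in KO. These sums restate the values that chose the genes, and they are transcript levels, which do not give the amounts of protein.

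The TLE genes encode corepressors that bind TCF/LEF, HES and other repressors and recruit histone deacetylases, and they did not move together. Tle4, the most abundant, measured 32, 35 and 31.9 FPKM in WT and 26.3, 20.3 and 20.3 FPKM in KO, a log2 fold change of -0.63 (SE 0.13). The groups did not overlap, and KO 1 came nearest to WT. Tle1 measured 10.8, 16.2 and 15.7 FPKM in WT and 8.19, 8.86 and 6.84 FPKM in KO, a log2 fold change of -0.90 (SE 0.20). WT 3 was the lowest WT library here and stood closer to KO than the other WT libraries did. Tle3 measured 12.2, 8.56 and 11 FPKM in WT and 8.13, 7.2 and 9.98 FPKM in KO, and it alone did not pass the threshold of the fit, at -0.38 (SE 0.17). Its groups overlapped, with WT 6 below KO 3. Tle2 went the other way, with 3.5, 1.25 and 1.45 FPKM in WT and 4.76, 6.78 and 6.44 FPKM in KO, a log2 fold change of 1.5 (SE 0.39). WT 3 was again the WT library nearest to KO, and without it the log2 fold change of Tle2 was 2.07. Within the TLE pool, Tle2 made up 5.99%, 2.04% and 2.41% in WT and 10%, 15.7% and 14.8% in KO.

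Tle2 stands on chromosome 10 (81574561 to 81590845, plus strand, mm10) between 2 relatives. Aes, now called Tle5, encodes a short TLE protein without the WD repeats. It ends 8198 bases before Tle2 starts, on the same strand. Tle6, a divergent family member, lies on the opposite strand and ends 58 bases beyond the end of Tle2, so that the pair run toward each other. Tle6 rose from 1.46, 0.702 and 0.722 FPKM in the WT libraries to 5.12, 9.23 and 8.46 FPKM in the KO libraries (log2 fold change 2.95, SE 0.37, adjusted p = 0.00287 in the edgeR fit of all genes). Its order over the libraries matched that of Tle2, with WT 3 highest in WT and KO 1 lowest in KO. Aes, far more abundant, rose from 84.7, 60.3 and 59.9 FPKM in WT to 111, 117 and 139 FPKM in KO (0.79, SE 0.16, adjusted p = 0.0143, edgeR), and its call ended without WT 6 (0.72) or WT 7 (0.71). All 3 TLE family genes at this locus were therefore higher in KO, whereas Tle1 and Tle4 on other chromosomes were lower.

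**Figure D3:**
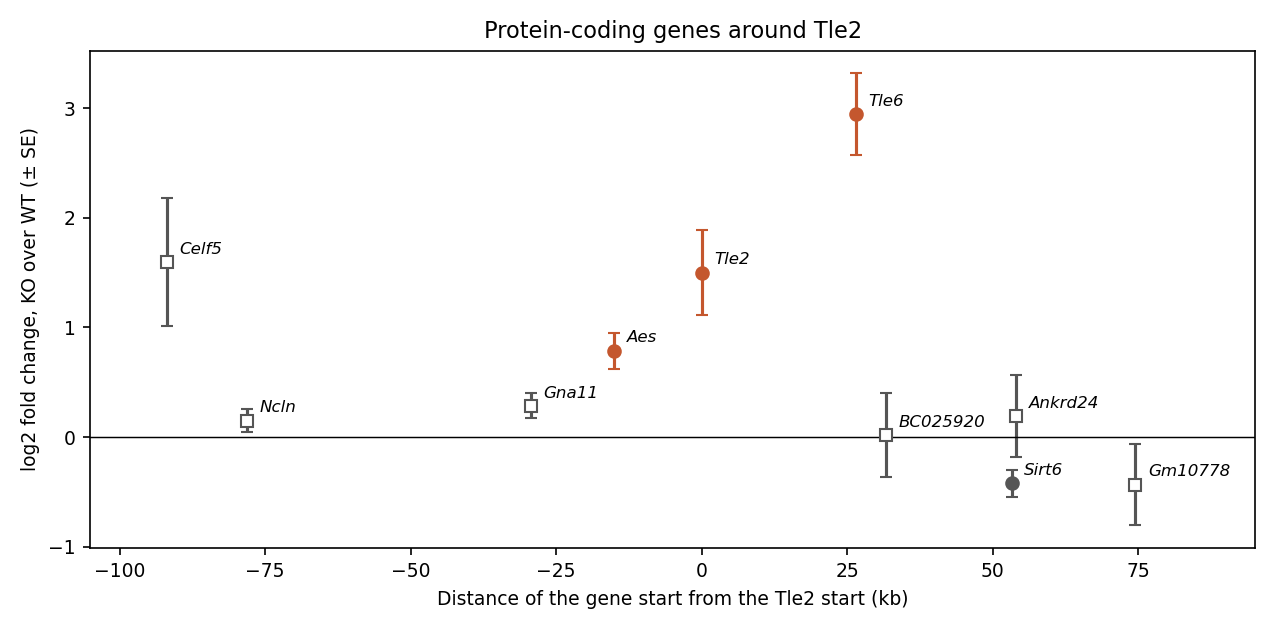
Log2 fold change of KO over WT (vertical axis, ± SE) of the tested protein-coding genes within 100 kb of Tle2, by the distance of each gene's start from that of Tle2 in kb (horizontal axis). TLE family genes are in orange, filled circles passed an adjusted p of 0.05 and open squares did not. Tle6 at 2.95, Tle2 at 1.5 and Aes at 0.79 are the filled points above 0, and Sirt6 at -0.42 is the filled point below it.

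Of the 9 other protein-coding genes tested within 100 kb of Tle2, 2 were higher, Tle6 and Aes, and 1 was lower, Sirt6 (-0.42, SE 0.12, adjusted p = 0.0428, edgeR). Beyond Aes, the next tested gene, Gna11, stood at 0.28 (SE 0.11, adjusted p = 0.0991) and beyond Tle6 the next, BC025920, at 0.02 (SE 0.38, adjusted p = 0.977). Celf5, farther upstream, had a fitted log2 fold change of 1.6 (SE 0.58, adjusted p = 0.0785), above that of Tle2, but did not pass. Over all 8 genes, 19 protein-coding neighbours within 100 kb were tested, of which 4 were higher and 2 lower. Among all tested genes 29.0% were called, 13.5% higher and 15.5% lower. The total called, over all 8 genes and around Tle2 alone, was near that 29.0%. Whether the library kit kept strand is not stated, so reads that run past the facing ends of Tle2 and Tle6 could be counted for either gene, and how many do so was not tested. Genes that overlap the span of a member held at most 3.6% of its mean reads.

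**Figure D4:**
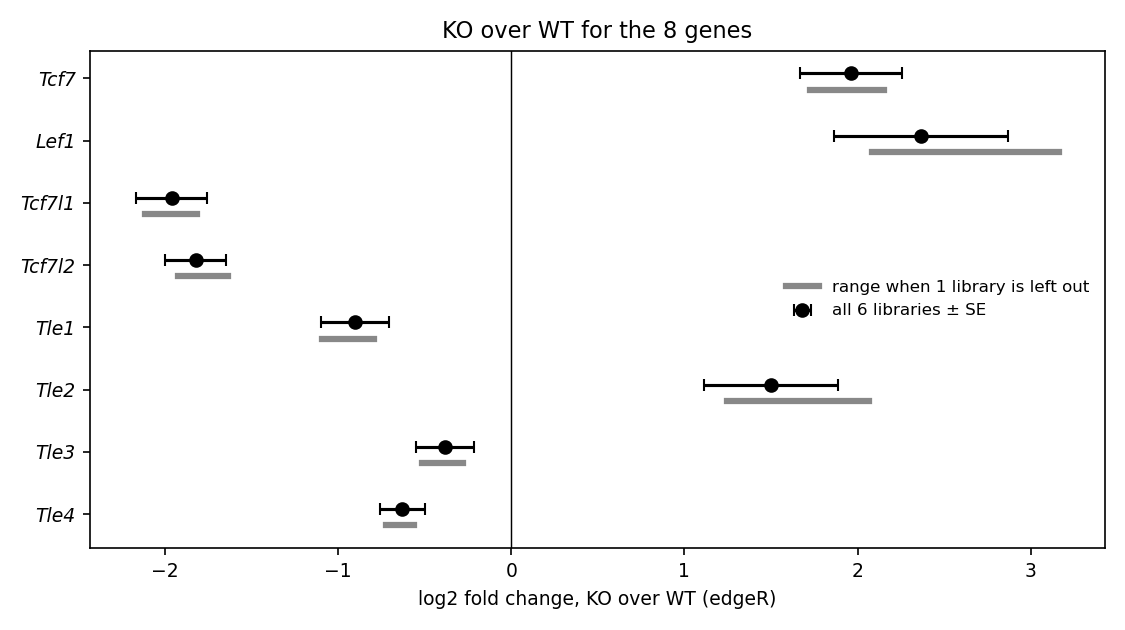
Log2 fold change of KO over WT from edgeR for the 8 genes (black points, bars ± SE, all 6 libraries), with grey lines for the range when each library is left out in turn. Tcf7, Lef1 and Tle2 lie above 0 and the other 5 below it throughout, and the widest ranges are those of Lef1, from 2.08 to 3.16, and Tle2, from 1.25 to 2.07.

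Taken against all genes, 7 of the 8 members passed an adjusted p of 0.05 in the edgeR fit, where 29.0% of the 16606 tested genes did. Higher in KO were 3 members, beside 13.5% of all genes, and lower were 4, beside 15.5%. The libraries of the groups did not overlap for 7 of 8 members, beside 48.6% of all genes. The median log2 fold change was -0.50 over the members and 0.00 over all tested genes. Since the members were chosen with this contrast known, nothing is read from these counts. The calls of Tcf7, Tcf7l1 and Tcf7l2 held whichever library was left out. That of Lef1 ended without WT 7 (2.08) or KO 2 (2.24), and that of Tle4 without WT 6 (-0.57) or KO 2 (-0.56). The call of Tle1 ended without WT 6 (-0.79), WT 7 (-0.82) or KO 1 (-0.88). Tle2 lost its call without WT 6 (1.25), WT 7 (1.31), KO 2 (1.40) or KO 3 (1.45).

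Of 15 tested genes for beta-catenin and its nuclear coactivators, 3 rose, 3 fell and 9 did not pass, where 13.5% of all tested genes were higher and 15.5% lower, with a median log2 fold change of -0.03. Ruvbl1, an ATPase of chromatin complexes that binds beta-catenin, rose from 36.9 ± 4.4 to 72.4 ± 1.71 CPM (log2 fold change 0.97, SE 0.12, adjusted p = 0.0027, edgeR), and Smarca4, the BAF complex ATPase, rose by 0.41 (SE 0.10, adjusted p = 0.0251). Med12, a Mediator kinase module subunit that beta-catenin contacts, fell from 156 ± 19.5 to 82.5 ± 6.73 CPM (-0.92, SE 0.13, adjusted p = 0.00362), and the acetyltransferase gene Kat5 fell by 0.45 (SE 0.13, adjusted p = 0.0359). The calls of Ruvbl1 and Med12 held whichever library was left out. That of Smarca4 ended without WT 6 (0.39), WT 7 (0.37), KO 1 (0.42) or KO 2 (0.42). Kat5 lost its call without any of 5 libraries, every one but WT 3 (-0.37 to -0.48).

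Of 16 genes for proteins that inhibit, modify or partner TCF/LEF or TLE proteins, 1 rose, 4 fell and 11 did not pass, with a median of -0.10. The total called was near the 29.0% among all tested genes, where 13.5% were higher and 15.5% lower. Hipk2, a kinase that phosphorylates TCF/LEF proteins, fell from 123 ± 22.7 to 58.6 ± 8.33 CPM (-1.08, SE 0.17, adjusted p = 0.00534, edgeR). Hbp1, an HMG-box repressor that blocks TCF binding, fell from 64.7 ± 9.34 to 27.6 ± 8.67 CPM (-1.23, SE 0.23, adjusted p = 0.0103). Both of these calls held whichever library was left out. Hdac2, a deacetylase that TLE proteins recruit, rose by 0.52 (SE 0.12, adjusted p = 0.0209), a call that ended without WT 6 (0.55), WT 7 (0.42) or KO 2 (0.49). Xiap, a ubiquitin ligase that acts on TLE proteins, fell by 0.42 (SE 0.12, adjusted p = 0.0373), a call kept only without WT 3, as it ended without each of the other libraries (-0.34 to -0.47). Of 13 genes of the destruction complex and the Dishevelled proteins, 1 fell and 12 did not pass, beside the same shares of all tested genes. The median was 0.06. Dvl3 fell from 208 ± 19.4 to 134 ± 8.67 CPM (-0.63, SE 0.11, adjusted p = 0.00809), without regard to which library was left out. Amer1 (0.56, SE 0.21, adjusted p = 0.085), Btrc (-0.30, SE 0.12, adjusted p = 0.0904) and Gsk3a (0.23, SE 0.09, adjusted p = 0.0972) did not pass.

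Of 25 listed genes that TCF/LEF and beta-catenin are reported to bind or activate, 20 were tested. Of these 2 rose, 3 fell and 15 did not pass, a share near the 29.0% called among all tested genes, with a median of 0.15. Ccnd1, the G1 cyclin, rose from 35.6 ± 1.44 to 752 ± 156 CPM (4.40, SE 0.19, adjusted p = 0.000324, edgeR), a larger fitted difference than that of any TCF/LEF gene. Bambi, a BMP pseudoreceptor, rose from 1.44 ± 0.295 to 3.27 ± 0.815 CPM (1.18, SE 0.32, adjusted p = 0.0331), a call that ended without any of 5 libraries, every one but KO 3 (1.03 to 1.35). Apcdd1, a membrane inhibitor of Wnt signalling, fell from 64.6 ± 19.8 to 17.3 ± 2.04 CPM (-1.90, SE 0.24, adjusted p = 0.00297). Sox9, a glial and stem cell factor that is also an astrocyte marker, fell from 320 ± 75.1 to 119 ± 41.6 CPM (-1.43, SE 0.30, adjusted p = 0.0151), a call that ended without WT 6 (-1.36) or WT 7 (-1.31).

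A further list held DNA-binding factors taken as possible partners of TLE proteins, and whether each binds them was not tested. Of its 15 tested genes, 5 fell and 10 did not pass, where 13.5% of all tested genes were higher and 15.5% lower. The median was 0.02. Hes5, a Notch effector that is also among the radial glia markers, fell from 159 ± 37.8 to 20.3 ± 9.29 CPM (-2.97, SE 0.38, adjusted p = 0.00297). Hey1, of the same group, fell from 110 ± 18.4 to 32.6 ± 10.1 CPM (-1.76, SE 0.24, adjusted p = 0.00367). Pax6, another of those markers, fell from 93.9 ± 4.31 to 39.7 ± 3.14 CPM (-1.24, SE 0.10, adjusted p = 0.000999). Nkx2-2, an oligodendrocyte lineage factor, fell from 46.3 ± 23.4 to 13.5 ± 5.13 CPM (-1.77, SE 0.43, adjusted p = 0.0228), a call that ended without KO 1 (-1.47), KO 2 (-2.02) or KO 3 (-1.82). Without WT 3, the library that stood apart, 2 coactivator genes rose and 3 fell, and 1 modulator rose and 5 fell. In that fit 3 target genes rose and 3 fell, 6 listed TLE partners fell, and 1 destruction complex gene rose and 2 fell. Leaving out 1 of the other libraries left 1 or 2 coactivator genes higher and 1 lower, and 2 modulators lower. It also left 1 or 2 target genes higher and 1 to 4 lower, and 3 or 4 listed TLE partners lower.

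Markers of some other cell types also differed between the groups. By edgeR, 0 of 6 tested microglia and macrophage markers passed, and 0 of 6 tested choroid plexus and ependyma markers. Without WT 3, 1 gene of each of these 2 lists was lower. The summed level of 18 oligodendrocyte lineage markers was 4767 to 5973 CPM in WT and 1188 to 2195 CPM in KO, and 13 of the 17 tested fell (edgeR). The 4 that did not pass were Olig1, Olig2, Cspg4 and Mog. Most of the sum in every KO library was Olig1 (log2 fold change -0.11, adjusted p = 0.766, edgeR) and Olig2 (-0.02, adjusted p = 0.942, edgeR). The 16 astrocyte markers summed to 18973 and 20949 CPM in WT 6 and WT 7, 7810 CPM in WT 3 and 2361 to 3536 CPM in KO, and 12 fell and 4 did not pass. WT 3, low in astrocyte markers, was also the lowest WT library for Tcf7l1 and Tle1, but not for Tcf7l2. The part of glial cells in the lower Tcf7l2, Tcf7l1 and Tle1 was not tested. All 12 proliferation markers rose, from a summed 219 to 400.2 CPM in WT to 2066 to 2723 CPM in KO. The 20 neuronal markers summed to 2892 CPM in WT 3, 1713 and 1487 CPM in WT 6 and WT 7, and 3004 to 4518 CPM in KO, with 4 of 20 higher and 16 that did not pass. That count rested on single libraries, since 13 were higher without WT 3 and 0 without WT 6, WT 7, KO 1 or KO 2, and with all libraries DESeq2 gave 9 and limma-voom 13. Tle2 was highest in WT 3 within WT, as these markers were, but within KO it was lowest in KO 1, where they were highest.

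Tcf7 and Lef1 are also expressed in T cells, and Lef1 in blood vessels. Of 10 T cell markers, the receptor chain gene Cd3d had 0 reads in all 6 libraries, and Cd3e had 8 reads in KO 1 and 0 in the others. The whole list summed to 1.51 to 4.09 CPM in WT and 3.93 to 4.96 CPM in KO. Lck was most of that sum in every library but WT 7, where it was still the largest part. The 2 tested, Lck (log2 fold change 0.93, SE 0.57, adjusted p = 0.249, edgeR) and Zap70, did not pass. Without WT 3 both were called higher, as they were by limma-voom with all libraries. Of 10 endothelial markers, Cdh5 had 0 reads in every WT library and 6, 3 and 1 in KO 1, KO 2 and KO 3, and Cldn5 had 0 in WT and 3, 2 and 0 in KO. That list summed to 32.8 to 56 CPM in WT and 34.7 to 44.3 CPM in KO. Most of it was Mfsd2a in every library but KO 1, where Slco1c1 was the largest part. Of 5 tested, Slco1c1 was higher in KO (log2 fold change 2.86, SE 0.57, adjusted p = 0.0122, edgeR). Kdr was lower (-2.07, SE 0.35, adjusted p = 0.00706), and 3 did not pass. Without WT 6, 0 genes of the list were higher. The 14 mural and meningeal markers were highest in KO 1, at a summed 755 CPM. They summed to 166 and 231 CPM in KO 2 and KO 3 and 104 to 132 CPM in WT. Outside KO 1 most of that was Cspg4, which is also among the oligodendrocyte lineage markers. The 11 markers of the cortical hem, a Wnt-producing edge of the cortex, summed to 64.8 to 72.8 CPM in WT. In KO they summed to 132, 206 and 143 CPM by library, with 2 of 7 tested higher, 5 of 9 without WT 3 and 1 of 7 without KO 2. Most of each sum was Wnt5a and Bmp7, at 57.7 and 121 CPM in KO 2. The 2 called were Bmp7 (log2 fold change 1.81, SE 0.30, adjusted p = 0.00611, edgeR) and Rspo1 (2.38, SE 0.48, adjusted p = 0.0125, edgeR). Of the 5 that did not pass, only Wnt2b was lower in KO (-0.14). Rspo3 had 84, 9 and 8 reads in WT and 287, 229 and 182 in KO (adjusted p = 0.0619, edgeR). Lmx1a, not tested, had 3, 4 and 0 reads in WT and 20, 12 and 6 in KO. Wnt3a had 2 reads in WT 3 and 0 in every other library. The 10 thalamic markers summed to 269 to 298 CPM in WT and 233 to 296 CPM in KO. Most of that was Lhx2, which is also among the progenitor and radial glia markers. Of 8 tested, 3 fell and 5 did not pass, and 0 fell without WT 6, WT 7 or KO 1. Lef1 was highest in KO 2, at 2.48 CPM against 1.9 and 1.99 CPM in KO 1 and KO 3. The part of these other cells in the higher Tcf7 and Lef1 was not tested.

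The genes most like each member were those of highest Pearson r of log2 CPM over the 6 libraries, among 12461 protein-coding genes. Since the groups lie apart, such an r mostly reflects the difference between KO and WT, and the points share library and depth. Tcf7l1 was most like Papss2 (r = 0.999), a sulphate donor synthase, which went from 5.33 to 0.968 CPM. Tcf7 was most like Rbpms2 (r = 0.999), an RNA-binding protein gene, which went from 2.76 to 7.38 CPM. Lef1 was most like Il17rc (r = 0.997), a cytokine receptor chain, and Tle1 most like Ssfa2 (r = 0.997). Tle2 was most like the glutamine transporter gene Slc1a5 (r = 0.997), which went from 8.97 to 37.5 CPM, with Ldha, a lactate dehydrogenase subunit gene, also near (r = 0.996). Tle4 was most like Kcnj12 (r = 0.998), a potassium channel gene, and Tle3, whose groups overlapped, was most like 4931414P19Rik (r = 0.994).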

How the data were processed

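The authors' deposited table gave whole-number read counts per gene, not normalised, for 6 libraries, and FPKM per gene. Per the submitters' processing notes, the tools were featureCounts 1.5.0-p3, HISAT2 2.0.5 and, separately, DESeq2 1.16.1, with mm10 as build; no source used here gives settings, annotation or strand. For the 8 genes, counts recomputed from the deposited FPKM matched the deposited counts within 0.05 reads.

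KO and WT were compared in 1 fit of all 6 libraries without covariates. edgeR 4.0.16 (R 4.3.3) was used with TMM scaling, the filterByExpr defaults, and its quasi-likelihood test (two-sided), with p-values adjusted by Benjamini-Hochberg over 16606 genes at 0.05. The SE is the absolute log2 fold change divided by the square root of F. With 3 libraries a group, exact permutation allows no p under 0.1 and was not used.

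The members and gene lists were chosen with earlier results of these data known. Genes named are the members, the up to 4 genes of lowest p in each pathway list, and the 3 of likest pattern per member (not all printed, and that of Tcf7l2 is not reported here); Sirt6, Gna11, Celf5 and BC025920 were named for their position after their values were seen, and marker genes to describe libraries. In the gene lists, Tle5, Tle7 and Tblr1 had no row under those symbols. Log2 CPM had a prior count of 2. Alternatives used limma 3.58.1 and DESeq2 1.42.0. RefSeq promoter windows (GRCm38.p6) were matched by symbol. The motif spellings CTTTGTA and CTTTGTT were added after a first search with the others.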

Additional observations from a re-analysis of the deposited data

How the results depend on the processing

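No paired analysis was made, because the labels give no pairing or batch. Over all genes, 4812 were called with all libraries, 2240 higher and 2572 lower, and limma-voom with quality weights called 8052, 4133 higher and 3919 lower. The other scalings, filters and tools gave 4625 to 5596 calls. Leaving out 1 library gave 2178 (without WT 6) to 6641 calls (without WT 3), with 1027 to 3500 higher and 1151 to 3141 lower. Of the 8 members, 4 to 7 then passed, 1 to 3 higher and 2 to 4 lower. No member changed direction under any alternative run. Of 110 values for members under alternatives, 99 stayed on their side of the threshold and 11 no longer passed, all 11 with a library left out. limma on FPKM could not give a value for Lef1, whose mean was under its minimum of 0.5 FPKM, and its log2(FPKM + 1) scale gave 1.25 for Tcf7 and 2.12 for Tle6. For the 22 other pathway genes, 264 of 306 values stayed on their side, 37 no longer passed, 5 newly passed and 0 reversed. Xiap also lost its call with library totals only (-0.36), no filter (-0.42), DESeq2 (-0.41) and on both FPKM scales (-0.32 and -0.35), Kat5 with no filter (-0.45) and DESeq2 (-0.44), and Smarca4 with no filter (0.41), and the cause was not tested. Library totals in place of TMM moved the median log2 fold change of all genes to 0.06, and no filter and DESeq2, with more low genes tested, to 0.14 and 0.15. Depth limits Lef1 most, with 4 to 15 reads in WT.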
